A study of Mus musculus with 21 samples.

Results

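Glucocorticoid receptor (GR) binding was described at 9 genes of the acute phase response and of interleukin-6 signalling in mouse liver. The genes were Orm1, Orm2, Orm3, Lcn2, Il6ra, Stat3, Socs3, Saa1 and Saa2. Overlapping peaks of 18 GR ChIP-seq libraries were merged into 7398 sites, and a site was assigned to a gene when that gene had the nearest protein-coding span on mm10 within 50 kb of the site's centre. By this rule 16 sites belonged to 6 of the 9 genes. Il6ra had 5 sites, Orm1 had 4, Saa1 had 3, Orm3 had 2, and Orm2 and Lcn2 had 1 each. Stat3, Socs3 and Saa2 had no site.

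The libraries came from livers of C57BL/6J mice in 6 groups of 3 biological replicates. Dexamethasone (DEX, a synthetic glucocorticoid, 10 mg/kg into the abdomen) was given in normoxia, after 6 h at 7% oxygen and after 24 h at 7% oxygen. Phosphate-buffered saline (PBS, the vehicle) was given under the same 3 oxygen conditions, and all livers were taken 2 h after injection, with the hypoxic mice returned to 7% oxygen for that time. Chromatin from frozen whole liver was precipitated with an antibody against GR, and peaks were called in each library against an input of the same oxygen condition. Values are the authors' normalized tags, that is, sequenced fragments under a peak scaled to 10000000 tags per library. In whole liver, binding in fewer cells and weaker binding per cell cannot be told apart.

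In the acute phase response, interleukin-6 binds its receptor on hepatocytes, whose ligand-binding chain Il6ra encodes. The signal passes to the transcription factor STAT3, which switches on genes of secreted defence proteins and Socs3, a feedback inhibitor of the same pathway. The secreted proteins include the orosomucoids (alpha-1-acid glycoproteins, Orm1 to Orm3), serum amyloid A (Saa1 and Saa2, lipoprotein-associated proteins) and lipocalin-2 (Lcn2, which binds bacterial iron carriers). Glucocorticoids are known to act together with interleukin-6 and C/EBP factors on several of these genes in hepatocytes.

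Orm2 and Orm3 are close copies of each other with a receptor site just upstream of each start, so their promoters are shown together. RefSeq promoter windows (GRCm38.p6, from 250 bases before to 50 bases after the start) were at hand for 8 of the 9 genes. The windows of Orm2 and Orm3 were identical at 89.5% of 295 aligned bases, with a longest identical run of 32 bases. The bases before the start are printed below on the + strand of mm10, 5′ to 3′, at chr4:63362199-63362448 for Orm2 and at chr4:63355908-63356068 for Orm3. The Orm3 sequence stops where the annotated span of Orm3 begins. Capitals mark a receptor hexamer (AGAACA) and a C/EBP word (TTGCGCAA) in Orm2 and the aligned bases in Orm3.

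Orm2: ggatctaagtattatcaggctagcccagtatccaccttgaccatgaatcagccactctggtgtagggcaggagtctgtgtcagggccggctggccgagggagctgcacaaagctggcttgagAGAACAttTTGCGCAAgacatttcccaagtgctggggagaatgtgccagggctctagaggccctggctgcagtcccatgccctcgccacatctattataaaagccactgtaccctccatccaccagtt
Orm3: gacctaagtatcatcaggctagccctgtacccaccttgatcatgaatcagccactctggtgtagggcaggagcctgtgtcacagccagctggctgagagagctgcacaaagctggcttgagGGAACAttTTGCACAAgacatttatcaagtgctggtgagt

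Counted from 1 at the first base printed for Orm2, A123G changes the hexamer and G135A the C/EBP word in the aligned Orm3 sequence. The hexamer TGTTCT, searched on both strands, lay 128 to 123 bases before the start of Orm2 and was not found in the Orm3 window. It was present in 19.0% of 32851 promoter windows of the same length. The C/EBP pattern TTNCNNAA lay 120 to 113 bases before the start of Orm2 and again 108 to 101 bases before it, as TTTCCCAA. The first word had a counterpart 121 to 114 bases before the start of Orm3, as TTGCACAA, and the second was altered there by C146A and C147T. This pattern was common, in 40.7% of all windows. A loose full glucocorticoid response element (GNACA, any 3 bases, then TGTNC, in 0.475% of all windows) was in none of the 8 windows. All the words named in Orm2 and Orm3 lay inside called receptor sites.

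Among the other windows, the hexamer was found only in Stat3, and the STAT pattern TTCNNNGAA (in 8.30% of all windows) only in Socs3, as TTCTTAGAA. Neither gene had a receptor site. The C/EBP pattern was in the windows of Lcn2, Il6ra, Stat3, Saa1 and Saa2, and an NF-kappaB pattern (GGG, any 2 bases, then TTTCC, in 1.63% of all windows) was in none of the 8. The Saa1 and Saa2 windows were identical at 96.0% of 299 aligned bases, with a run of 65 identical bases. The sources used here do not say how reads matching several copies were counted, so values at the orosomucoid and serum amyloid A sites are uncertain in how they are shared between copies.

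The DEX libraries held 5772670 to 13181686 tags and the PBS libraries 8667179 to 43645787. Normoxia PBS replicate 1 stood apart, with the most tags of the 18 libraries, the widest peaks (280 bp) and 3915 peaks. The caller's minimum score of 50 was not scaled to depth. Taken as tags, it stood for 37.9 to 86.6 normalized tags in the DEX libraries and for 11.5 to 57.7 in the PBS libraries. These levels are approximate, as an Orm3 site was called in 6 h hypoxia DEX replicate 2 at 83.2 tags, under its 86.6. A peak also had to stand 4-fold over input and surroundings, so a site without a peak may still hold receptor. Of marker genes of liver cell types, 8 of 10 hepatocyte genes, 1 of 10 Kupffer cell and leukocyte genes and 4 of 6 endothelial genes had a site. The only sites of Apoa1 and Apob (hepatocyte), Ptprc (leukocyte) and Pecam1 (endothelial) were called in 1 library each. The share of all genes with a site was not counted, so nothing is read from these counts. Peak lists hold no expression, so the tissue could not be checked.

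The first comparison asked how DEX changed receptor detection at these genes. With DEX, 7 of the 16 sites had a peak in all 9 libraries: 3 in Il6ra and 1 each at Lcn2, Orm1, Orm2 and Saa1. With PBS, no site had a peak in all 3 libraries of any group. Of all 7398 sites, 12.6% had a peak in all 9 DEX libraries. Among the 2563 sites called in 3 or more of the 18 libraries the share was 36.5%, and 12 sites of these genes were called that often. All 16 sites were called in normoxia with DEX, 11 after 6 h of hypoxia with DEX and 9 after 24 h of hypoxia with DEX. The corresponding numbers with PBS were 2 in normoxia, 7 after 6 h and 0 after 24 h. Over all genes, too, fewer sites were called in hypoxia than in normoxia with DEX. Of the 2563 sites called in 3 or more libraries, 98.2% were called with DEX in normoxia, 84.2% after 6 h and 84.6% after 24 h, and with PBS 26.5% in normoxia, 34.1% at 6 h and 10.5% at 24 h of hypoxia. The 12 sites of these genes among them were called with DEX at 12 in normoxia, 11 after 6 h and 9 after 24 h, and with PBS at 2, 7 and 0. Of the 16 sites, 3 were called in 1 library, as were 59.1% of all sites. That library was normoxia DEX replicate 1 at all 3, the deepest of the DEX libraries, and 11.9% of all sites were called in it alone.

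**Figure D1:**
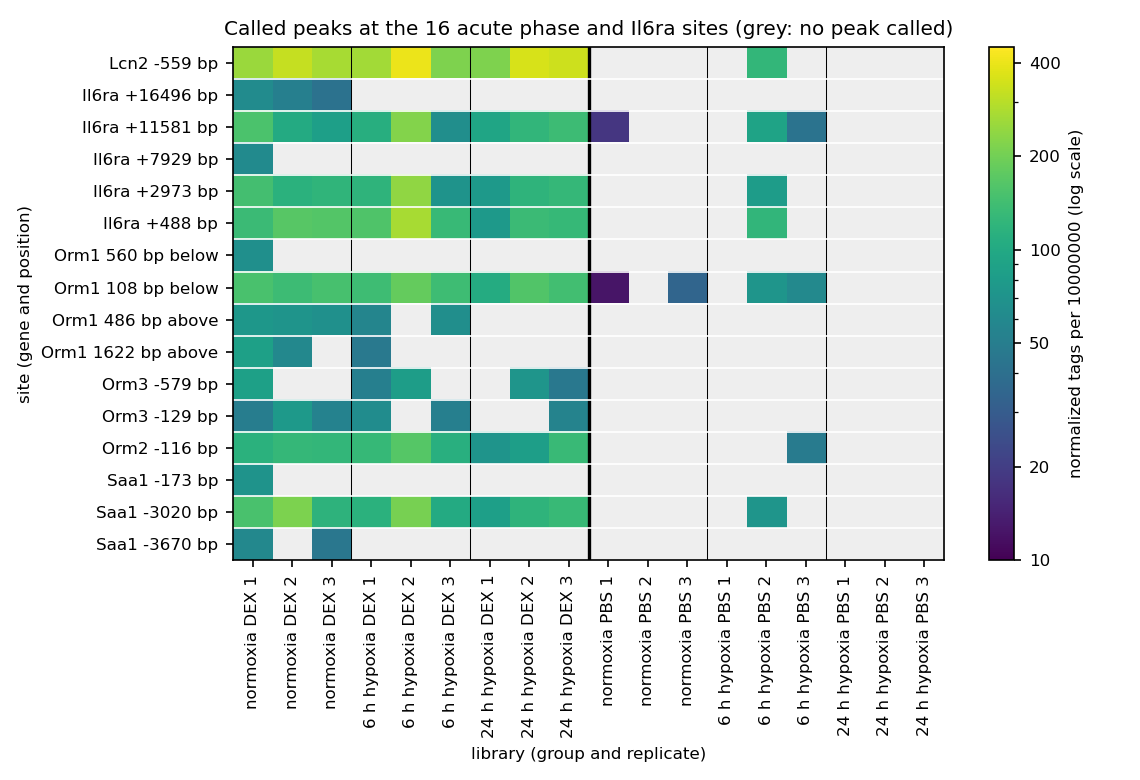
Normalized tags (colour, log scale, per 10000000 tags) of the called peak at each of the 16 sites (rows, with the distance of the site's centre from the gene's RefSeq start, or from the gene span for Orm1) in each of the 18 libraries (columns). Grey means that no peak was called; the 7 sites called in all 9 DEX libraries form unbroken rows on the left, and the 24 h hypoxia PBS columns are empty.

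Lcn2 carried the highest site. It lay at chr2:32388185-32388412, with its centre 559 bp upstream of the RefSeq start, outside the gene span. The tags were 253, 320 and 275 in normoxia with DEX, 264, 404 and 217 after 6 h of hypoxia with DEX, and 215, 355 and 337 after 24 h of hypoxia with DEX. The 3 groups overlapped. With PBS it was called in 1 library, 6 h hypoxia PBS replicate 2, at 124 tags, below all 9 DEX values. The mean with DEX was 293 ± 64.5 tags (SD, n = 9 libraries), rank 130 of the 935 sites called in all 9 DEX libraries, whose median was 140 tags. The authors' fold over input of this peak was 73.7 to 222 in the DEX libraries.

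Il6ra held 5 sites, all inside its gene span, 3 of them in every DEX library. The nearest to the start was at chr3:89912596-89912821, 488 bp downstream of it. Its tags were 134, 167 and 163 in normoxia with DEX, 158, 275 and 129 after 6 h of hypoxia with DEX, and 76.9, 135 and 129 after 24 h of hypoxia with DEX. The lowest value was in 24 h hypoxia DEX replicate 1, and 6 h hypoxia PBS replicate 2, the only PBS library with a peak here, lay above it at 122 tags. The other 8 DEX values were higher than the PBS value.

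The site 2973 bp downstream of the Il6ra start, at chr3:89910100-89910347, had 145, 115 and 122 tags in normoxia with DEX, 119, 241 and 70.4 tags after 6 h of hypoxia with DEX, and 76.9, 119 and 127 tags after 24 h of hypoxia with DEX. It was called with PBS in 6 h hypoxia PBS replicate 2 alone, at 82.2 tags, which was above 2 of the 9 DEX values. The site 11581 bp downstream, at chr3:89901475-89901755, had 153, 102 and 85.2 tags in normoxia with DEX, 108, 224 and 65.7 tags after 6 h of hypoxia with DEX, and 93.2, 123 and 136 tags after 24 h of hypoxia with DEX. It was called in 3 PBS libraries, at 18.3 tags in normoxia PBS replicate 1, 91.2 in 6 h hypoxia PBS replicate 2 and 42.8 in 6 h hypoxia PBS replicate 3. At both sites 6 h hypoxia DEX held both the highest and the lowest DEX value.

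The remaining Il6ra sites were weaker. The site 16496 bp downstream of the start, at chr3:89896597-89896804, had 63.0, 51.5 and 41.8 tags in the 3 normoxia DEX libraries and no peak in any other library. The site 7929 bp downstream was called in normoxia DEX replicate 1 alone, at 62.2 tags. Whether the Il6ra sites fall in exons or introns was not determined here.

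The orosomucoid cluster on chromosome 4 held 7 sites within 18.5 kb. Each had at least 6 other sites within 20 kb, as did 0.635% of all sites, against a median of 0 other sites. The site nearest to Orm1, at chr4:63344308-63344588, was centred 108 bp below the lower-numbered end of the gene span and reached into it. It had 150, 136 and 149 tags in normoxia with DEX, 138, 182 and 139 after 6 h of hypoxia with DEX, and 104, 159 and 143 after 24 h of hypoxia with DEX. Its coefficient of variation over the 9 DEX libraries was 14.4%, the lowest of the 7 sites called in all of them, and the median of the 935 sites was 25.4%. It was also the site called most often with PBS, at 12.4 and 34.5 tags in normoxia PBS replicates 1 and 3 and at 73.2 and 60.2 tags in 6 h hypoxia PBS replicates 2 and 3. All 4 PBS values were below all 9 DEX values.

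The Orm2 site, at chr4:63362221-63362445 and centred 116 bp upstream of the start, is the one over the printed hexamer. It had 113, 126 and 125 tags in normoxia with DEX, 129, 165 and 110 after 6 h of hypoxia with DEX, and 71.8, 84.8 and 133 after 24 h of hypoxia with DEX. Its PBS call was in 6 h hypoxia PBS replicate 3, at 49.0 tags, below every DEX value.

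The aligned Orm3 site, at chr4:63355919-63356139 and centred 129 bp upstream of the start, was lower and less often called. It had 50.1, 77.3 and 54.2 tags in normoxia with DEX, 63.8 and 51.4 in replicates 1 and 3 after 6 h of hypoxia with DEX, 54.6 in replicate 3 after 24 h of hypoxia with DEX, and no peak with PBS. The mean over the libraries with a peak was 117 ± 27.2 tags for the Orm2 site (SD, n = 9). It was 58.6 ± 10.4 tags for the Orm3 site (SD, n = 6), which leaves out the DEX libraries without a called peak. The difference between these copies is a description and was not tested.

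The other orosomucoid sites were called only with DEX. The second Orm3 site, at chr4:63355476-63355682, was called in 5 DEX libraries at 45.9 to 86.5 tags, 1 in normoxia and 2 each after 6 h and 24 h of hypoxia. The site 486 bp above the upper end of Orm1, at chr4:63348535-63348764, was called in all 3 normoxia and 2 of the 6 h hypoxia DEX libraries at 56.8 to 75.1 tags. The site 1622 bp above that end was called in 3 DEX libraries at 46.3 to 86.5 tags. The site 560 bp below the lower end of Orm1 was called in normoxia DEX replicate 1 alone, at 66.8 tags.

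**Figure D2:**
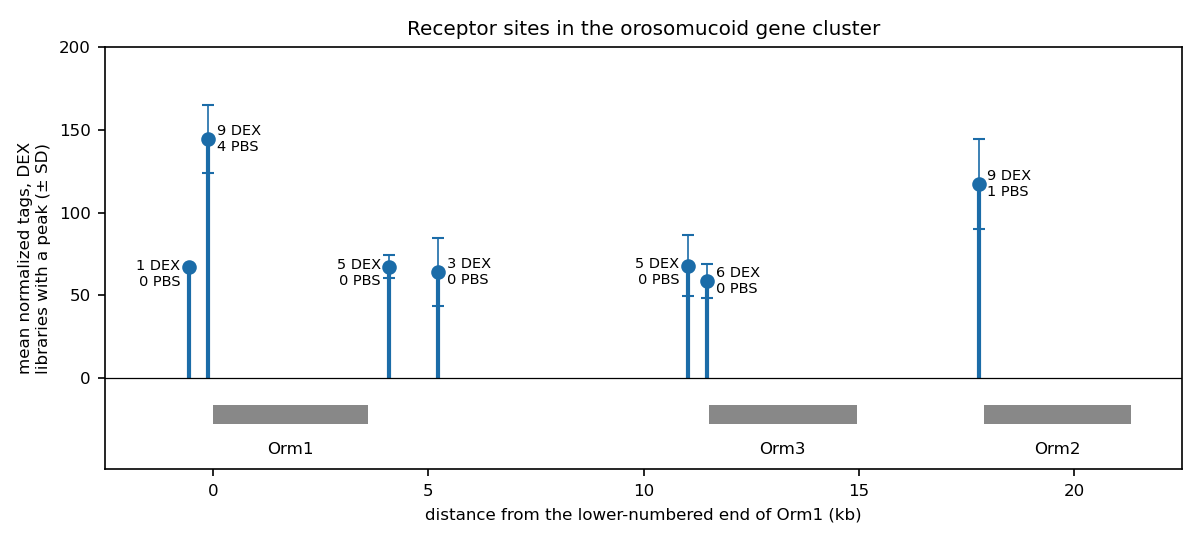
Mean normalized tags (vertical axis, per 10000000; bars are ± SD over the DEX libraries with a peak) of the 7 receptor sites along the orosomucoid cluster (horizontal axis, kb from the lower-numbered end of Orm1), with the number of DEX and PBS libraries that called each and the gene spans in grey. The sites beside Orm1 and Orm2 that were called in all 9 DEX libraries average 144 and 117 tags, and the 5 other sites lie between 58.6 and 67.9 tags.

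Saa1 had 1 site in all 9 DEX libraries, at chr7:46745886-46746115, centred 3020 bp upstream of the RefSeq start. Its tags were 150, 213 and 118 in normoxia with DEX, 115, 206 and 102 after 6 h of hypoxia with DEX, and 85.5, 120 and 131 after 24 h of hypoxia with DEX. In the PBS libraries it was called once, in 6 h hypoxia PBS replicate 2, at 73.2 tags, below all DEX values. It lies between Saa1 and Saa2, 2819 bp from the span of Saa1 and 5833 bp from that of Saa2, so the assignment to Saa1 rests on distance. Of the weaker sites, one 3670 bp upstream was called in normoxia DEX replicates 1 and 3 at 59.2 and 44.9 tags. Another, 173 bp upstream of the RefSeq start and centred inside the annotated gene span, was called in normoxia DEX replicate 1 alone at 70.6 tags.

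The genes without a site differed in their surroundings. Socs3 had no site of any gene within 50 kb. Stat3 had 2 within 50 kb, nearest to Stat5a and Stat5b (related signal transducers), each called in 1 PBS library and in no DEX library. The Stat5a site had 11.9 tags, near the 11.5 that the caller's minimum stood for in normoxia PBS replicate 1. In every other library that minimum stood for 30.3 tags or more, so no loss with DEX is read from these calls. Saa2 had 5 within 50 kb, the 3 of Saa1, 1 beside Saa3 (a further serum amyloid A gene) and 1 in Hps5. The Hps5 site, too, was called in 1 PBS library and in no DEX library.

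Detection per site over the 18 libraries was tested by the exact Cochran-Mantel-Haenszel method with the 3 oxygen conditions as strata (two-sided, Benjamini-Hochberg adjustment over the 2563 sites called in 3 or more libraries). Of the 16 sites, 12 were called that often, and 9 of the 12 were called more often with DEX and 0 less often. Over all sites tested, 55.3% were called more often with DEX and 0.039% less often. Sites called in fewer than 3 PBS libraries entered this test only through their DEX calls, so nothing is read from the count of 9. The adjusted p by this exact test was 0.00438 at the Lcn2, Orm2 and Saa1 sites and at the 2 Il6ra sites nearest to the start. Each was called in 9 DEX libraries and 1 PBS library. They too entered through their DEX calls, so the value is given as a description. By the same exact test the adjusted p was 0.0216 at the Il6ra site 11581 bp downstream (9 DEX, 3 PBS). At the Orm1 site 108 bp below (9 DEX, 4 PBS) it was 0.0452. At the Orm3 site 129 bp upstream (6 DEX, 0 PBS) it was 0.0216, and at the Orm1 site 486 bp above (5 DEX, 0 PBS) 0.0403. Neither of these was called with PBS, so both values are given as a description and nothing is read from them.

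The exact test did not pass at the Orm3 site 579 bp upstream (5 DEX, 0 PBS, adjusted p = 0.0677), at the Il6ra site 16496 bp downstream (3 DEX, 0 PBS, adjusted p = 0.131) and at the Orm1 site 1622 bp above (3 DEX, 0 PBS, adjusted p = 0.230). Every call at these sites was with DEX, so no smaller p was possible for calls so spread over the oxygen conditions. Nothing is read from these misses. The call at the Orm1 site 108 bp below was lost without normoxia PBS replicate 2 (adjusted p = 0.0766, exact test) or without 6 h hypoxia PBS replicate 1 (0.0770). The count of 9 was unchanged without normoxia PBS replicate 1 and without 6 h hypoxia PBS replicate 2. With all sites tested it was 5 of 16.

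Calls with PBS were few and gathered in few libraries. Of 12 such calls at the 16 sites, 6 were in 6 h hypoxia PBS replicate 2, 3 in 6 h hypoxia PBS replicate 3, 2 in normoxia PBS replicate 1 and 1 in normoxia PBS replicate 3. The first of these had 1.23% of its tags in peaks, the highest of the PBS libraries, whose others had 0.15% to 0.68%. The part of this share in the calls was not tested. Each of the 7 sites called in all 9 DEX libraries was called in some PBS library, as were 77.6% of the 935 sites. None of the 7 was called after 24 h of hypoxia with PBS, where 25.3% of the 935 sites were called in some library. Tags were compared between DEX and PBS at the 62 sites called in all 18 libraries, and none of those belonged to the 9 genes. None did among the 133 sites called in at least 2 of 3 libraries of every group either.

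**Figure D3:**
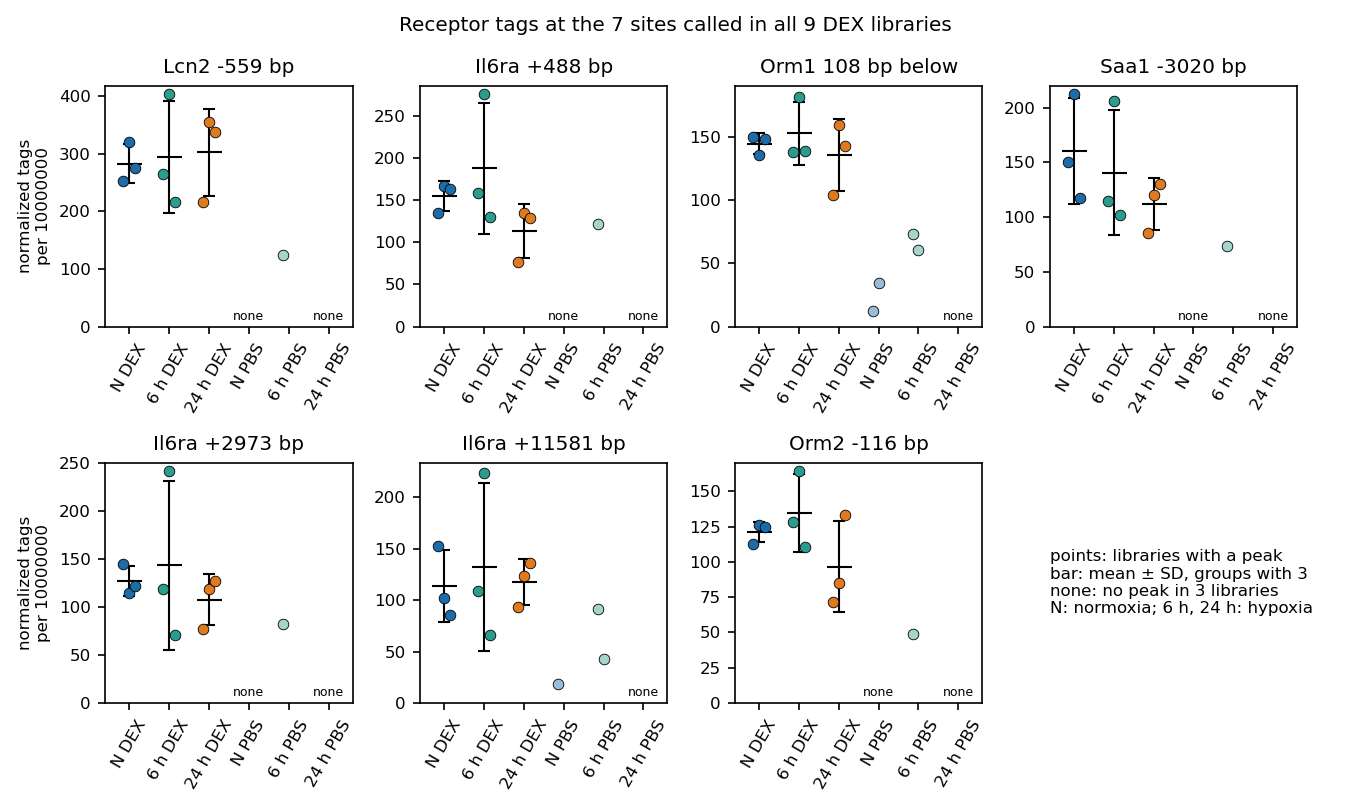
Normalized tags per 10000000 (vertical axis) at the 7 sites called in all 9 DEX libraries, by group (horizontal axis; N is normoxia, 6 h and 24 h are hypoxia). Points are libraries with a peak and bars are the mean ± SD of groups with 3 of them; the 3 DEX groups overlap at every site, and PBS values, where called, lie low in or below the DEX range.

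The second comparison asked whether hypoxia changed receptor binding with DEX. No site of the 9 genes passed the test of tags. None passed the test of detection either, but there even the most extreme pattern possible did not pass. Detection after 6 h and 24 h of hypoxia together was compared with normoxia by Fisher's exact test, two-sided, at the 2938 sites called in 2 or more of the 9 DEX libraries. Of the 13 such sites at these genes, 0 were called, and 0% of all sites tested were called in either direction. The smallest p that Fisher's exact test could give was 0.0119, which after adjustment was 0.343, so nothing is read from these counts. At an unadjusted p under 0.05, 257 of all sites were called less often in hypoxia and 3 more often.

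The Il6ra site 16496 bp downstream was the one closest to a change, with a peak in 0 of 6 hypoxia and 3 of 3 normoxia DEX libraries (Fisher's exact p = 0.0119, adjusted p = 0.343). The same pattern was found at 3.47% of the sites tested. Its values of 41.8 to 63.0 tags lie close to the caller's minimum. The hypoxia DEX libraries called 7 to 11 of the 16 sites each and the normoxia DEX libraries 11 to 16. Of the 2563 sites called in 3 or more libraries, the hypoxia DEX libraries called 47.8% to 83.4% and the normoxia DEX libraries 82.8% to 94.7%. Between 1.38% and 3.15% of the tags of a hypoxia DEX library were in peaks, against 2.85% to 3.68% in normoxia. The part of this in detection was not tested. With PBS, 0 of 2 sites passed the same exact test (0% of 632 sites in either direction; at an unadjusted p under 0.05, 1 of all sites was higher and 2 were lower in hypoxia).

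Tags with DEX were compared by limma on log2 tags at the 935 sites called in all 9 DEX libraries, each library centred on its median over these sites. Of the 7 sites at the 9 genes, 0 passed in hypoxia (both times together) against normoxia, where 3.10% of all sites were higher and 2.03% lower. After 6 h against normoxia 0 of 7 passed, beside 1.71% higher and 0.856% lower among all sites. After 24 h against normoxia 0 of 7 passed, beside 2.14% higher and 2.03% lower. After 24 h against 6 h 0 of 7 passed, beside 0.107% higher and 1.28% lower. The edgeR quasi-likelihood test on the whole tags also gave 0 of 7 in each. The median log2 change of the 7 sites in hypoxia against normoxia was 0.03, and that of all 935 sites was 0.05.

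Centring raised the log2 changes by 0.15 for hypoxia against normoxia and by 0.29 for 24 h against normoxia. The changes are therefore relative to the typical site. With centring 4 of the 7 log2 changes at 24 h were above 0 and without it 2 were, so no common direction was read from them.

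The largest differences by unadjusted p were at Lcn2 and Il6ra. The Lcn2 site had a log2 change of 0.36 ± 0.14 (SE) after 24 h against normoxia, with a 95% interval of 0.05 to 0.66 (limma, adjusted p = 0.161). Between 24 h and 6 h its log2 change was 0.32 ± 0.14 (limma, adjusted p = 0.266). The Il6ra site 488 bp downstream had a log2 change of -0.42 ± 0.15 between 24 h and 6 h, with a 95% interval of -0.75 to -0.09 (limma, adjusted p = 0.192). Neither passed the adjustment. Without centring the Lcn2 log2 change was 0.07 after 24 h against normoxia and 0.05 between 24 h and 6 h. That of the Il6ra site between 24 h and 6 h was -0.69 without centring (limma, adjusted p = 0.390).

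For hypoxia against normoxia the log2 interval was -0.07 to 0.46 at Lcn2 and -0.54 to 0.13 at Saa1. It was -0.15 to 0.41 at the Orm1 site and -0.29 to 0.35 at the Orm2 site. At the Il6ra sites it was -0.27 to 0.30 at 488 bp, -0.35 to 0.38 at 2973 bp and -0.18 to 0.65 at 11581 bp downstream. A site that missed the threshold is not shown to be unchanged.

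**Figure D4:**
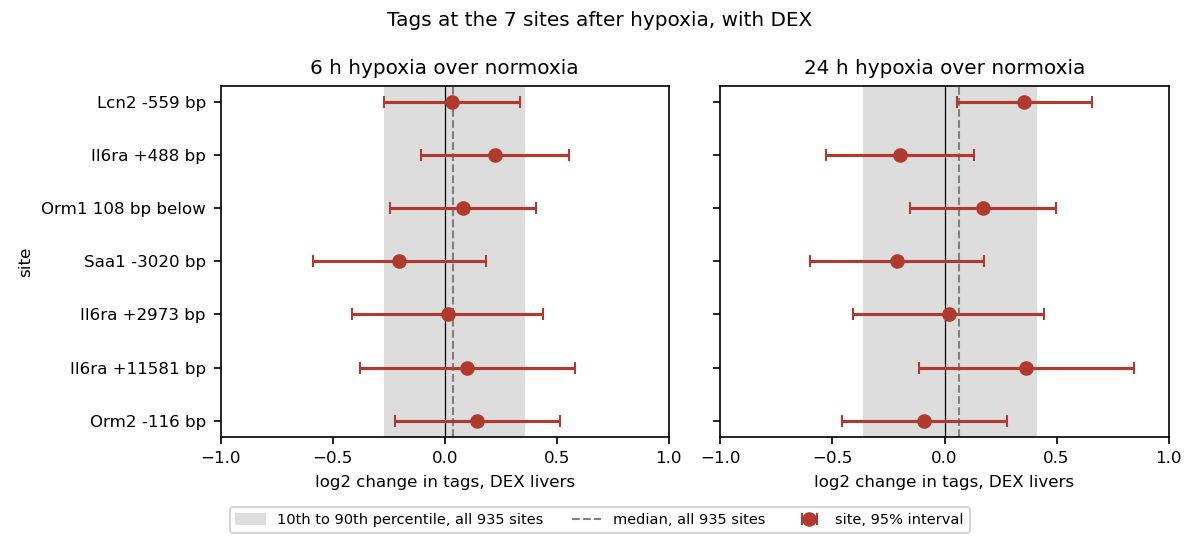
Log2 change in tags with DEX at the 7 sites (horizontal axis; points with 95% intervals from limma, each library centred) after 6 h and after 24 h of hypoxia over normoxia. The grey band holds the 10th to 90th percentile of all 935 sites and the dashed line their median; the 7 points lie between -0.21 and 0.37, and every interval reaches into the band.

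A pair of libraries set the extremes at most of these sites. The shallowest library, 6 h hypoxia DEX replicate 2 with 5772670 tags, was the highest of the 9 at 6 of the 7 sites, the exception being Saa1, and at 72.8% of the 935 sites. The library with the lowest share of tags in peaks with DEX, 24 h hypoxia DEX replicate 1 with 1.38%, was the lowest at 5 of the 7 sites and at 73.2% of the 935 sites. At the other 2, the Il6ra sites 2973 and 11581 bp downstream, 6 h hypoxia DEX replicate 3 was lowest.

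As a description of likeness, log2 tags at each site were correlated with those of the Lcn2 site over the 9 DEX libraries, which share their depth and share of tags in peaks. The most alike were the sites nearest to Tbx3 (Pearson r = 0.978; 338903 bp from its span), Tsku (0.978), Mtss1 (0.960), C330007P06Rik (0.954) and Pde4dip (0.953). After centring each library the r values were 0.919, 0.904, 0.786, 0.881 and 0.888, in the same order. The median of all other sites was 0.673 before and 0.08 after centring. The other 6 sites of the 9 genes had 0.521 to 0.792 before and -0.258 to 0.311 after centring.

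Among 22 further genes of interleukin-6 and related cytokine signalling, 15 had a site. They held 35 sites, of which 12 were called often enough for the test of DEX against PBS, and 8 of these passed as called more often with DEX, 0 as less often. Among 28 further acute phase protein genes, 21 had a site. They held 37 sites, 20 were tested, and 11 passed as called more often with DEX, 0 as less often. These are 66.7% and 55.0% of the sites tested, beside 55.3% of all sites tested, so neither count is read as a result about its list. In hypoxia with DEX, 0 sites of either list passed the limma test, with median log2 changes of -0.12 over 5 signalling sites and -0.13 over 6 acute phase sites, against 0.05 over all 935 sites.

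Nfkbia, which encodes the inhibitor of NF-kappaB and is a known receptor target, had the highest site of these lists, called in all 18 libraries, with 450 ± 71.6 tags with DEX and 112 ± 83.6 tags with PBS (SD, n = 9 each). Its log2 change with DEX against PBS was 2.29 ± 0.31 (SE, limma), among 62 such sites of which 95.2% were higher. Its log2 change in hypoxia with DEX was -0.12 ± 0.16 (limma, adjusted p = 0.744). With DEX 1.38% to 3.68% of a library's tags were in peaks, and with PBS 0.15% to 1.23%. With that share as a covariate 0 of the 62 sites passed.

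The sites named here were chosen for their DEX calls and tags, so their values with DEX and PBS are a description with no test. The other 7 were called in all 9 DEX libraries. Stat5b, a signal transducer, had 175 ± 51.0 tags with DEX and 4 PBS calls, and a log2 change in hypoxia of 0.47 ± 0.15 (limma, adjusted p = 0.0874). Lbp, which encodes the lipopolysaccharide-binding protein, had 171 ± 43.7 tags and 5 PBS calls. Lifr, a receptor chain for leukaemia inhibitory factor, had 160 ± 38.6 tags and 1 PBS call. Alb (albumin) had 116 ± 36.2 tags and 3 PBS calls at a site 35996 bp from its gene span.

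Hp (haptoglobin, which binds free haemoglobin) had 128 ± 38.4 tags, Saa3 had 91.6 ± 17.5 and Serpina3k, a serine protease inhibitor, had 88.2 ± 27.1 (SD, n = 9 DEX libraries for all 7). None of the last 3 had a PBS call. The Saa3 site, 90 bp from the gene span, thus had DEX calls in 9 libraries and PBS calls in 0, while the Saa1 site had 9 and 1.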

How the data were processed

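Livers of 6 groups of 3 mice were profiled by GR ChIP-seq, with groups taken from sample titles. Reads were handled with Trimmomatic, BWA 0.7.17 and SAMtools 1.10 on mm10, per the submitters' processing notes. The authors called peaks with HOMER in each library against its input, at 4-fold over input and surroundings with a Poisson p of 1e-04, per the file headers. The deposited signal is the normalized tag count of a peak. The deposited score is the caller's tag score, at least 50 in every list. The deposited total tags are whole counts, except in normoxia PBS replicates 1 and 3. The deposited ratio of each peak to its input came from the authors' peak caller.

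Peaks overlapping by 1 bp were merged, and a site took its highest peak. Genes came from RefSeq tables of GRCm38.p6 (21900 protein-coding genes). Tests used R 4.3.3, limma 3.58.1, edgeR 4.0.16 and SciPy 1.17.1, with a threshold of 0.05 on p adjusted over all sites, and were tested on simulated data. Further genes were named when a site was called in 8 or more of 9 DEX libraries, up to 8 by calls and then mean tags. The members and lists were chosen with earlier results of these data known. Alternatives covered thresholds, merging, gene assignment, centring, filters, pseudocount, left-out libraries and replicate numbers. The edgeR alternative on whole tags was chosen after seeing the data.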

Additional observations from a re-analysis of the deposited data

How the results depend on the processing

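The count of 9 sites called more often with DEX than with PBS was 5 of 16 with no filter on few detections, and 0 with lists of equal length (78 peaks), where no site of the 9 genes was called often enough to be tested. It was 7 of 7 with a common threshold of 86.6 tags, and 8 to 10 when single libraries were left out. The labels name nothing that equal replicate numbers share. Deviations from the group means correlated at 0.006 to 0.506 (Pearson r) in 9 same-numbered pairs of DEX libraries, 7 of them over 0.1, and at -0.482 to 0.356 in 18 other pairs, 4 of them over 0.1. In 12 of 18 comparisons of a DEX library with another DEX group, the closest library had the same number. Of the 9 libraries, 4 were closest to their own number in both other groups. At the 62 sites called in all 18 libraries, 45 same-numbered pairs, those of DEX with PBS included, had r of -0.588 to 0.519. Of these pairs, 28 were over 0.1. This is a hint of shared deviations, but not every pair was over 0.1, so the block is an alternative. With the replicate block the count was 5 of 12. The 4 lost calls, with adjusted p of 0.0622 to 0.130 without the filter and 0.0657 to 0.106 with the block, were the Il6ra site 11581 bp downstream, both called Orm1 sites and the Orm3 site 129 bp upstream. At these 4 sites no pair in the block was called with PBS alone. The block could therefore give no smaller p for the pairs that differed. The Orm3 site 579 bp upstream passed without any one of 4 DEX libraries (0.0190 to 0.0303). The counts of 0 in the 4 comparisons of tags in hypoxia with DEX stayed at 0 in every alternative run, the block included. So did those of detection in hypoxia, where the design left little room for a call. Over all sites, 1418 were called more often with DEX, against 757 with the common threshold, 28 with equal lists, 929 with no filter and 921 with the block. In hypoxia against normoxia with DEX, 29 sites were higher and 19 lower in tags, against 2 and 9 without centring, and 5 and 10 with the share of tags in peaks as a covariate; 19 became 31 with the block and 35 by edgeR. With single DEX libraries left out, 15 to 41 were higher and 8 to 24 lower. After 6 h, 16 were higher and 8 lower, against 2 and 1 without centring, 7 and 5 with the covariate, 25 and 15 with the block, and 2 to 32 and 3 to 13 with single libraries left out; 16 became 8 with sites called in 2 of 3 libraries per group. After 24 h, 20 were higher and 19 lower, against 6 and 10 with the covariate, 41 and 40 with the block, and 6 to 37 and 13 to 44 with single libraries left out; 20 became 2 without centring, and 19 became 41 by edgeR. Between 24 h and 6 h, 1 was higher and 12 lower, against 14 and 29 with the block and 0 to 6 and 5 to 22 with single libraries left out, and the 1 became 0 without centring and 2 by edgeR. Of the 62 sites called in all libraries, 59 were higher with DEX and 0 lower, against 16 and 20 with each library centred, and 0 higher with the covariate; 129 of 133 were higher with sites called in 2 of 3 libraries per group, and 96 of 100 without 24 h hypoxia PBS replicate 3. The causes were not tested.

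Of the 16 sites, 4 were called in too few libraries to be tested for DEX against PBS. A site without a peak may hold receptor that missed the caller's criteria, and the minimum in normalized tags differed between libraries. With 9 DEX libraries, the smallest p that Fisher's exact test could give for hypoxia was 0.0119, which after adjustment was 0.343.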
